A study of Mus musculus with 6 samples.

Results

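Chemokines and their receptors were examined in 6 castration-resistant mouse prostate tumours. The members were the protein-coding genes whose GENCODE M21 symbols follow the Ccl, Cxcl, Cx3cl, Xcl, Ccr, Cxcr, Cx3cr, Xcr or Ackr naming pattern. Of 21718 genes in the deposited table, 55 matched, 34 of them ligands and 21 receptors. Another 6 symbols of the pattern (Ccl21b, Ccl21c, Ccl26, Ccl27, Ccl27b and Ccr10) were not used here.

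All recipients were mice of 1 genetic model of prostate cancer. They received 900 rad at 6 weeks of age and then donor bone marrow, were castrated at 8 weeks, and gave tumours 16 weeks after castration. The marrow of the KO group came from F10fl/fl; LysM-Cre+ donors (3 samples, numbered 1, 3 and 4). That of the WT group came from F10fl/fl donors without Cre (3 samples, numbered likewise), so both groups carry floxed F10 alleles and neither is wild type. LysM-Cre acts in macrophages, monocytes and neutrophils, and F10 encodes coagulation factor X. Irradiated hosts keep their own epithelium, stroma and some tissue-resident immune cells, which the marrow genotype does not reach. Whether a sample was 1 animal is not stated, and the p-values below cover only sample-to-sample spread, which may be technical.

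Chemokines are small secreted proteins that steer leukocytes along gradients by binding G protein-coupled receptors. CXC ligands with a glutamate-leucine-arginine motif attract neutrophils through Cxcr2, most CC ligands attract monocytes, eosinophils or lymphocytes, and atypical receptors take up ligands without G protein signalling. In mouse models of prostate cancer, Cxcr2 and its ligands are known to draw granulocytic myeloid cells.

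Promoters are shown for Cxcl1, Cxcl2 and Cxcl3, Cxcr2 ligands of 1 gene cluster. They were chosen because all lay below 0 in log2 fold change (KO over WT) over the 6 samples. The promoter of Cxcl15, a neighbour that lay above 0, is given for comparison. Without WT 4, Cxcl2 and Cxcl3 lay above 0 too, at 0.03 and 0.17, and Cxcl1 lay at -0.58. Cxcl5, also of this cluster and below 0, had no promoter sequence on hand. The promoters shown were picked with the fold changes over the 6 samples known. Sequences are RefSeq windows on GRCm38.p6, plus strand, positions -130 to -1 before the annotated start. Capitals mark matches to GGG, any 2 bases and TTTCC, a form of the site that NF-kappaB proteins bind. It was searched on both strands, and no other motif was searched.
Cxcl1 (chr5:90891115-90891244): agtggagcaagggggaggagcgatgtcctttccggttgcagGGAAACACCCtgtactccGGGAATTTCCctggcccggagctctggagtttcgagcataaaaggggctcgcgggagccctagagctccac
Cxcl2 (chr5:90903769-90903898): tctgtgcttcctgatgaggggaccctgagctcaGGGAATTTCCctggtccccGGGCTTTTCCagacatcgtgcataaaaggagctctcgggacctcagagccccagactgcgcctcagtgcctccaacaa
Cxcl3 (chr5:90785971-90786100): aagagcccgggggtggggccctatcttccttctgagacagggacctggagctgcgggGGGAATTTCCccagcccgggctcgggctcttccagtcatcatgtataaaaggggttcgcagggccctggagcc
Cxcl15 (chr5:90794404-90794533): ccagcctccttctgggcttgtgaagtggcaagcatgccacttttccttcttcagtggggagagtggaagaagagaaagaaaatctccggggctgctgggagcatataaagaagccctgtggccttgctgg

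The site GGGAATTTCC stood at positions -71 to -62 of Cxcl1, -97 to -88 of Cxcl2 and -73 to -64 of Cxcl3. Cxcl1 had another match at -89 to -80 and Cxcl2 another at -78 to -69, while the Cxcl15 window held 0 matches. Windows of 300 bases (250 before and 50 after the start) were on hand for 43 of the 55 members. Of their 47 windows, 6 (12.8%) held a match, against 1.63% of all 32851 windows. The matches were in Cxcl1, Cxcl2, Cxcl3, Ccl9, Ccl20 and Ccr3. Cxcl1, Cxcl2 and Cxcl3 are related neighbours picked for display, so their matches are not independent, and enrichment was not tested. Ccl9 lay at 0.66 and Ccl20 at -0.43 in log2 fold change, and Ccr3 had too few counts. A link between matches and fold changes was not tested. A match is a string of letters and not a measured binding site.

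Library totals ranged from 9237308 to 11821588 counts. Sample WT 4 stood apart from the other 5, with a score of 91.6 on a first principal component that held 49.1% of the variance, where the others lay between -36.7 and 12.5. Luminal epithelial genes summed to 4709 to 5233 CPM (counts scaled to 1000000 per TMM-adjusted library) in KO and 4702 to 5858 CPM in WT tumours, with Krt8 at 1137 CPM on average in both. Pbsn, a prostate-specific gene that androgens induce, averaged 12.9 CPM in KO and 48.6 CPM in WT tumours (edgeR adjusted p = 0.23), so the labelled tissue had its defining marker. Skeletal muscle markers (6 of 6 detected) summed to 411 to 1074 CPM in KO and 11.4 to 75.3 CPM in WT tumours, and adipocyte markers to 119 to 184 and 10.4 to 24.6 CPM. The part of these admixed tissues in the chemokine values was not tested. In whole tumours, fewer cells of a type and less RNA per cell cannot be told apart.

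No chemokine or receptor gene passed the test between marrow groups. Of the 55 members, 44 had enough counts to be tested, and edgeR called 0 of them at an adjusted p under 0.05, where it called 0.0439% of all 15963 genes tested. Of the 44, 16 lay above 0 and 28 below 0 in log2 fold change (KO over WT), where all genes had 47.3% above and 52.7% below. The median was -0.16 over the 44 and -0.02 over all genes. The excess of lower values depended on single samples. Without WT 4, 21 of 45 tested members lay above and 24 below 0 (median -0.02), and without KO 3 it was 23 and 23 of 46 (median -0.01). At an unadjusted p under 0.05, 1 member (Ccl7) was higher and 1 (Cxcl1) lower in KO tumours, against 6.15% and 4.74% of all genes. DESeq2 called 1 of the 44, Ccl7 (3.05% of all genes called), and limma-voom called 0 (0.0125%). Blocking on the replicate number called 0 members (0.0125% of all genes), as did testing without a filter (0.0461%) and leaving out each sample in turn (0.0304% of all genes without WT 4). The plot of fold changes by role gives the tested members described here.

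**Figure D1:**
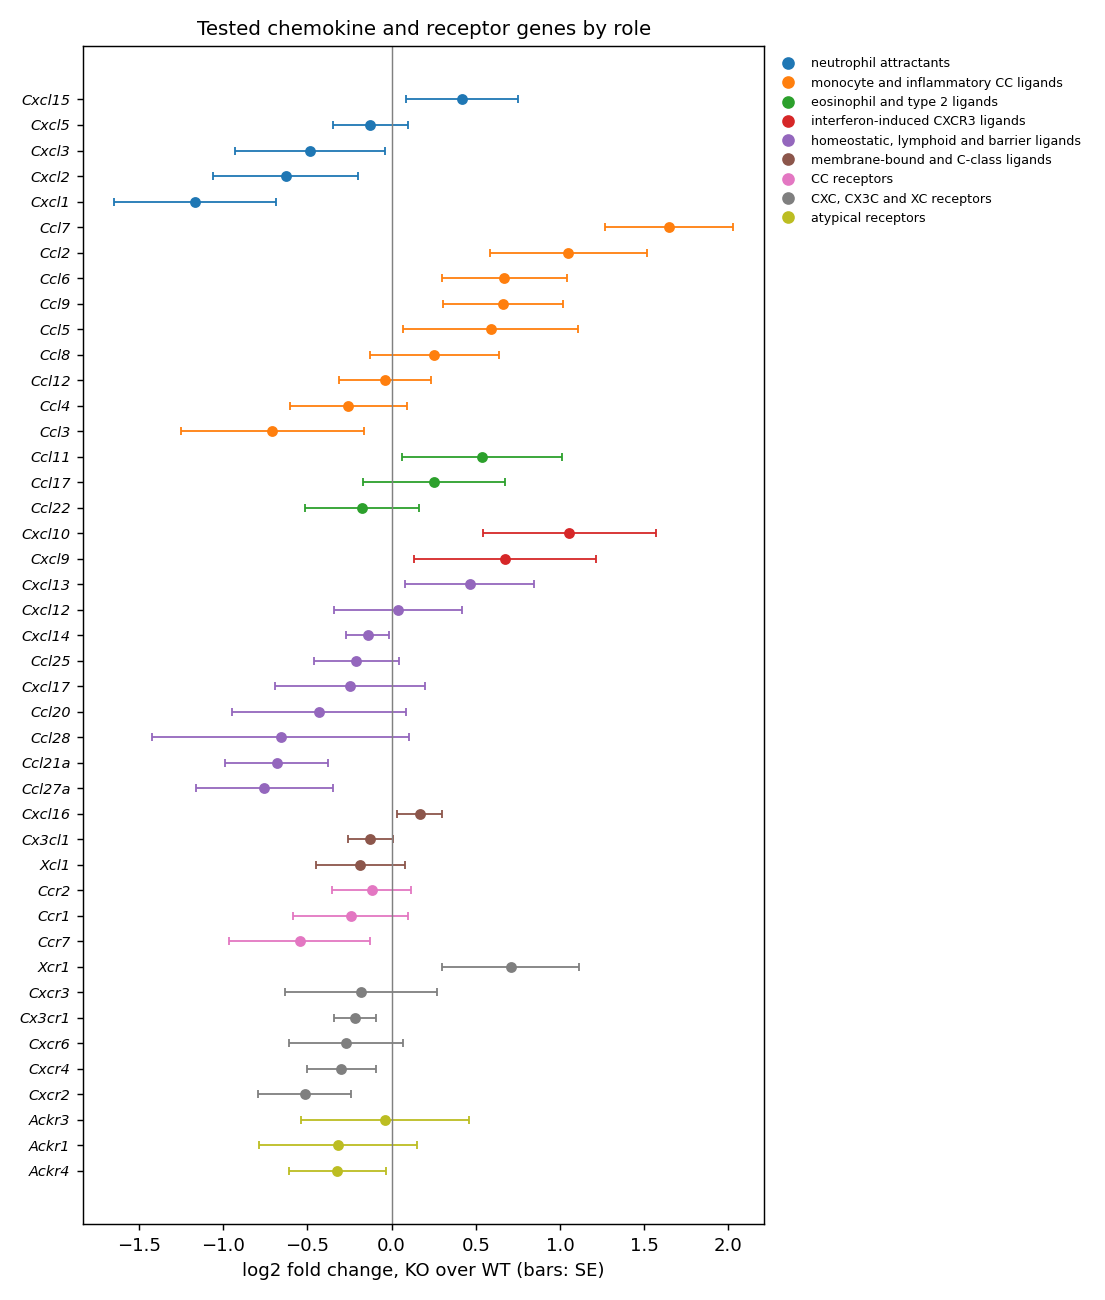
Log2 fold change (KO over WT, x axis) of the tested members described here (y axis), coloured by role, with points for edgeR estimates and bars for SE. Ccl7 lies farthest to the right at 1.65 and Cxcl1 farthest to the left at -1.17, and neither passed the adjusted threshold.

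Neutrophil attractants differed among themselves. All 5 members of this class, which lie within 147 kb on chromosome 5 (90759360 to 90905938, GRCm38), passed the count filter. In edgeR 4 lay below 0 and 1 above (median -0.48 in log2 fold change), and without WT 4 the split was 2 below and 3 above with a median of 0.03. Cxcl1 (ENSMUSG00000029380), a Cxcr2 ligand made by epithelium, stroma and myeloid cells, had 15.1, 13.9 and 30.2 CPM in KO tumours 1, 3 and 4, against 23.5, 35.6 and 74.1 CPM in WT tumours 1, 3 and 4. The groups overlapped, since KO 4 exceeded WT 1, but in each numbered pair the KO tumour was the lower. Means were 19.7 ± 9.08 and 44.4 ± 26.4 CPM (SD, n = 3 each), a log2 difference of -1.17 ± 0.48 (SE, edgeR adjusted p = 0.44). Blocking on that number gave -1.11 ± 0.18 (edgeR adjusted p = 0.156), and leaving out WT 4 gave -0.58 ± 0.37 (edgeR adjusted p = 0.712).

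Cxcl2, another Cxcr2 ligand, had 41.8, 31.8 and 51.9 CPM in KO tumours and 37.0, 44.8 and 112 CPM in WT tumours. Cxcl3, of the same receptor, had 10.3, 9.98 and 13.3 CPM in KO and 7.47, 12.3 and 27.3 CPM in WT tumours. For both genes WT 4 was the highest of the 6 samples, and the other WT tumours lay among or beside the KO tumours. Their log2 fold changes were -0.63 ± 0.43 and -0.48 ± 0.45 (SE, edgeR adjusted p = 0.656 and 0.758), and turned to 0.03 and 0.17 without WT 4. Summed over Cxcl1, Cxcl2 and Cxcl3, levels were 67.2, 55.7 and 95.4 CPM in KO tumours against 68.0, 92.7 and 213.9 CPM in WT tumours.

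Cxcl5, a Cxcr2 ligand that epithelium secretes and the class's most abundant member per length, had 268, 339 and 412 CPM in KO tumours and 276, 411 and 425 CPM in WT tumours. In both groups number 1 was the lowest and number 4 the highest, and the KO tumour was the lower of each pair by a small margin. Its log2 fold change was -0.13 ± 0.22 (SE, edgeR adjusted p = 0.895), or -0.02 without WT 4 and 0.05 without KO 1. Cxcl15, known as lungkine and described as a neutrophil attractant of the mouse lung, had 246, 357 and 359 CPM in KO tumours and 148, 204 and 368 CPM in WT tumours. WT 4 again held the top value, above all KO tumours, while WT 1 and WT 3 lay below all of them. The log2 fold change was 0.42 ± 0.33 (SE, edgeR adjusted p = 0.718), or 0.86 without WT 4 (edgeR adjusted p = 0.256). The difference between Cxcl15 and its neighbours was not tested.

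**Figure D2:**
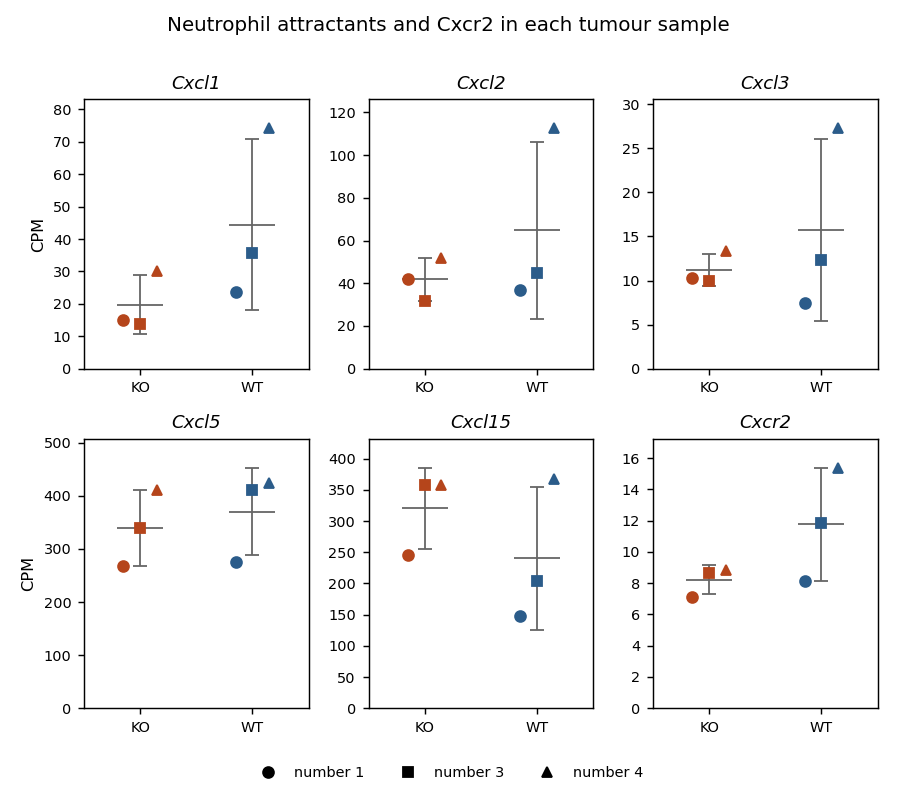
CPM (y axes, each from 0) of the 5 neutrophil attractants and Cxcr2 in KO (left) and WT (right) tumours; symbols give the replicate number, horizontal bars the mean and whiskers the SD of 3 samples. WT 4 is the highest sample in all 6 panels, and for Cxcl1, Cxcl2 and Cxcl3 it lies far above the other 5.

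Among the receptors of these ligands, Cxcr2, the main neutrophil chemokine receptor, had 7.14, 8.63 and 8.87 CPM in KO tumours and 8.12, 11.8 and 15.3 CPM in WT tumours. KO tumours were the lower of all 3 pairs, but WT 1 fell among the KO values. The log2 fold change was -0.52 ± 0.28 (SE, edgeR adjusted p = 0.561), and -0.28 without WT 4. Cxcr1, which in mice also binds neutrophil attractants, had 1, 0 and 0 counts in KO and 2 in each WT tumour, all under a floor of 3 counts (0.254 to 0.315 CPM). No fold is given for it.

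Neutrophil markers are given beside these values. The 8 detected genes of that list, Cxcr2 among them, summed to 104, 140 and 127 CPM in KO tumours and 125, 188 and 250.4 CPM in WT tumours. Of 6 tested, 5 lay below 0 and 0 were called. S100a8 averaged 27.0 CPM in KO and 45.4 CPM in WT tumours, S100a9 35.0 and 57.3 CPM, and the defining gene Ly6g had 11 counts over all 6 libraries. The part of neutrophil content in the ligand values was not tested.

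Monocyte-attracting CC ligands lay mostly above 0, with no call. All 9 members passed the filter, 6 above and 3 below 0, with a median log2 fold change of 0.59 (-0.02 over all genes) and 0 called by edgeR. That median was 0.15 without KO 4, 0.33 with the block and 0.37 with limma-voom. Ccl7 (ENSMUSG00000035373, chromosome 11, 82045712 to 82047525), a Ccr2 ligand that brings monocytes out of marrow into tissue, had 4.10, 4.31 and 8.10 CPM in KO tumours and 1.85, 1.46 and 1.97 CPM in WT tumours. Each KO tumour exceeded every WT tumour. Counts were 39, 51 and 95 in KO and 20, 17 and 19 in WT libraries, so this is a gene of modest depth.

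Ccl7 averaged 5.50 ± 2.25 CPM in KO and 1.76 ± 0.267 CPM in WT tumours (SD, n = 3 each), a log2 difference of 1.65 ± 0.38 (SE, edgeR adjusted p = 0.174). DESeq2 gave 1.66 ± 0.47 (SE) with an adjusted p of 0.0197. With the block it was 1.59 (edgeR adjusted p = 0.183), and with 1 sample left out it ranged from 1.26 without KO 4 to 1.85 without KO 1. Ccl7 was 1 of 44 tested members whose groups did not overlap with KO higher, where 8.99% of all genes had that pattern.

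Ccl2, the neighbour of Ccl7 and the best known Ccr2 ligand, had 2.42, 3.38 and 7.08 CPM in KO tumours and 2.21, 1.54 and 2.49 CPM in WT tumours. The groups overlapped narrowly, because KO 1 lay just below WT 4. Its log2 fold change was 1.05 ± 0.47 (SE, edgeR adjusted p = 0.469), and 0.48 without KO 4. Ccl12, the third Ccr2 ligand of the mouse, was level at 4.68 ± 0.714 CPM in KO and 4.80 ± 0.591 CPM in WT tumours, a log2 difference of -0.04 ± 0.27 (SE).

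Ccl6 and Ccl9, CC ligands of Ccr1 made largely by myeloid cells, shared a pattern. Ccl6 had 22.8, 23.3 and 53.0 CPM in KO tumours and 16.1, 19.2 and 27.2 CPM in WT tumours. Ccl9 had 11.3, 13.4 and 22.8 CPM in KO tumours and 7.20, 8.57 and 14.3 CPM in WT tumours. Number 4 was the highest of each group for both genes, which made the groups overlap, while KO was the higher of every pair. For Ccl9 the pair differences were nearly equal, at 0.65, 0.64 and 0.67 log2 units for numbers 1, 3 and 4. Log2 fold changes were 0.67 ± 0.37 for Ccl6 and 0.66 ± 0.36 for Ccl9 (SE, edgeR adjusted p = 0.58 and 0.562), and with the block 0.59 and 0.66 (edgeR adjusted p = 0.272 and 0.221). Without KO 4 they were 0.15 and 0.30.

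Ccl5, a CC ligand made by T and NK cells, had 38.2, 7.61 and 17.3 CPM in KO tumours and 14.7, 11.6 and 15.7 CPM in WT tumours. KO tumours held both its highest and its lowest value, and the log2 difference of 0.59 ± 0.52 (SE, edgeR adjusted p = 0.751) became -0.13 without KO 1. T and NK markers (9 of 9 detected) summed to 79.2, 32.9 and 64.0 CPM in KO tumours and 56.8, 54.2 and 60.5 CPM in WT tumours. Their top and bottom samples were those of Ccl5, and the part of T and NK content in the Ccl5 value was not tested. Ccl8, a CC ligand of the same chromosome 11 group, had 11.9, 11.2 and 17.9 CPM in KO and 8.03, 7.89 and 18.6 CPM in WT tumours, a log2 difference of 0.25 ± 0.38 (SE, edgeR adjusted p = 0.874). Without WT 4 it was 0.78. Ccl3 and Ccl4, macrophage inflammatory proteins, were below 0, at -0.71 ± 0.54 and -0.26 ± 0.35 (SE, edgeR adjusted p = 0.704 and 0.852). Ccl3 had its top value in WT 4, and its log2 fold change was -0.11 without that sample. Macrophage and monocyte markers (10 of 10 detected) summed to 376 to 477 CPM in KO and 428 to 485 CPM in WT tumours, 3 above and 7 below 0, and their part in the CC ligand values was not tested.

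**Figure D3:**
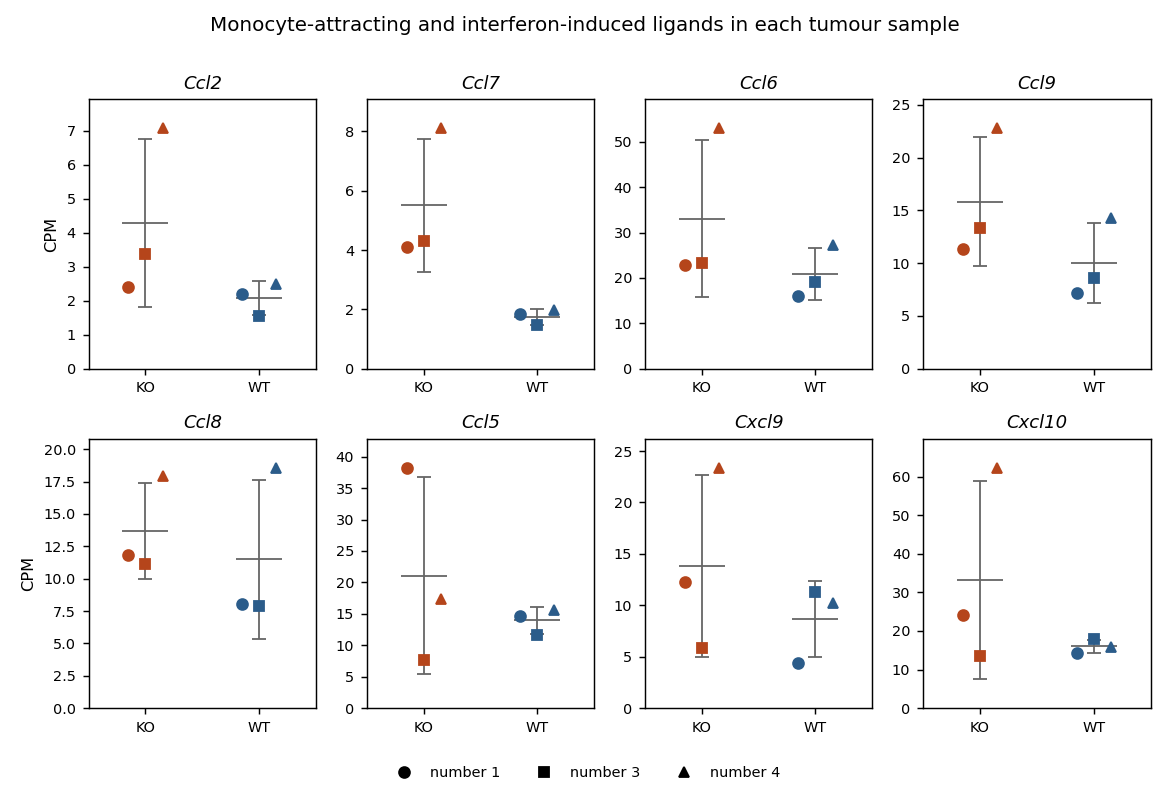
CPM (y axes, each from 0) of 6 CC ligands and of Cxcl9 and Cxcl10 in KO (left) and WT (right) tumours; symbols give the replicate number, horizontal bars the mean and whiskers the SD of 3 samples. Only Ccl7 of these 8 has all KO tumours above all WT tumours, and KO 4 is the highest KO sample in every panel but that of Ccl5.

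Interferon-induced ligands of Cxcr3, the receptor of activated T cells, differed among KO tumours. For both, KO 1 and KO 4 lay above every WT tumour, while KO 3 did not. Cxcl10 had 24.0, 13.4 and 62.3 CPM in KO tumours and 14.4, 17.8 and 15.8 CPM in WT tumours. Cxcl9 had 12.3, 5.84 and 23.4 CPM in KO and 4.43, 11.3 and 10.3 CPM in WT tumours. KO 4 held the top of both, and KO 3 was the lowest of all 6 for Cxcl10. Log2 fold changes were 1.06 ± 0.51 and 0.67 ± 0.54 (SE, edgeR adjusted p = 0.526 and 0.719), and 0.23 and 0.06 without KO 4. Cxcr3 itself averaged 3.25 ± 1.10 CPM in KO and 3.66 ± 1.84 CPM in WT tumours (SD, n = 3 each).

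Ligands of eosinophils and type 2 responses were scarce. Ccl11, the eotaxin of Ccr3, had 2.21, 2.54 and 4.35 CPM in KO and 1.20, 1.80 and 3.32 CPM in WT tumours, KO being higher in each pair with overlap between groups. Its log2 fold change was 0.54 ± 0.47 (SE, edgeR adjusted p = 0.749), with 0.18 without KO 4 and 1.01 without WT 4. Ccl17, a dendritic-cell ligand of Ccr4, had 3.36, 1.35 and 1.88 CPM in KO and 1.75, 2.06 and 1.66 CPM in WT tumours. Ccl22, which binds the same receptor, had 4.10, 2.62 and 4.52 CPM in KO and 3.32, 5.31 and 4.04 CPM in WT tumours. Both overlapped between groups, at 0.25 ± 0.42 and -0.18 ± 0.34 (log2, SE, edgeR adjusted p = 0.888 and 0.904). Ccl1 and Ccl24 had at most 6 counts in any library.

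Homeostatic, lymphoid and barrier ligands held the member of highest level per length, Cxcl17. Of 10 members, 9 were tested, 2 above and 7 below 0, with a median of -0.25 that was -0.10 without WT 4 and -0.53 without WT 1. Cxcl17, a ligand of mucosal surfaces, had 248, 258 and 270 CPM in KO tumours and 152, 213 and 556 CPM in WT tumours. The WT values enclosed all KO values, and the log2 difference of -0.25 ± 0.44 (SE, edgeR adjusted p = 0.898) became 0.50 without WT 4. Ccl20, the Ccr6 ligand of epithelium, and Ccl28, a mucosal ligand of Ccr10, showed the same shape. Ccl20 had 17.3, 18.9 and 21.8 CPM in KO and 8.03, 27.3 and 43.0 CPM in WT tumours. Ccl28 had 24.3, 15.5 and 13.7 CPM in KO and 4.06, 27.8 and 52.6 CPM in WT tumours, so WT 1 was the lowest and WT 4 the highest for all 3 of these epithelial ligands. Log2 fold changes of Ccl20 and Ccl28 were -0.43 ± 0.52 and -0.66 ± 0.76 (SE, edgeR adjusted p = 0.826 and 0.819), and 0.12 and 0.15 without WT 4.

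Cxcl13, which attracts B cells through Cxcr5, had 97.3, 105 and 65.0 CPM in KO tumours and 48.4, 106 and 39.5 CPM in WT tumours. Number 3 was the top of both groups, and the log2 fold change was 0.46 ± 0.38 (SE, edgeR adjusted p = 0.725), with 0.21 without WT 4 and 1.02 without WT 3. Ccl21a, which guides dendritic and T cells by Ccr7, had 32.8, 17.1 and 15.8 CPM in KO and 36.5, 27.3 and 41.3 CPM in WT tumours. KO was lower in every pair, with KO 1 inside the WT range. The log2 fold change was -0.68 ± 0.31 (SE, edgeR adjusted p = 0.482), with -1.06 without KO 1, and reads of near-identical Ccl21 copies cannot be assigned with certainty. Ccl27a, a skin ligand of Ccr10 that also has close copies, lay at -0.75 ± 0.41 (SE, edgeR adjusted p = 0.566) from 8.19, 3.89 and 2.98 CPM in KO and 10.6, 7.71 and 6.95 CPM in WT tumours, and ranged from -1.26 to -0.49 with 1 sample left out.

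Cxcl14, a ligand of epithelium and fibroblasts, had 52.3, 51.4 and 46.4 CPM in KO and 52.7, 54.2 and 58.7 CPM in WT tumours. Although the groups did not overlap, the log2 difference was -0.14 ± 0.13 (SE, edgeR adjusted p = 0.751). With Cx3cr1 it made 2 of 44 members that did not overlap with KO lower, where 7.67% of all genes did so. Cxcl12, the stromal ligand of Cxcr4, had 116, 79.9 and 101 CPM in KO and 137, 109 and 44.2 CPM in WT tumours, with WT 4 the lowest of all, a log2 difference of 0.04 ± 0.38 (SE, edgeR adjusted p = 0.983) that was -0.31 without WT 4. Ccl25, the thymic and gut ligand of Ccr9, lay at -0.21 ± 0.25 (log2, SE, edgeR adjusted p = 0.826), and Ccl19, the other Ccr7 ligand, had at most 5 counts in a library.

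Membrane-bound and C-class ligands had 1 of 3 members above 0. Cxcl16, the ligand of Cxcr6, had 112, 108 and 121 CPM in KO and 113, 101 and 90.1 CPM in WT tumours. Cx3cl1, or fractalkine, had 102, 83.9 and 82.1 CPM in KO and 94.6, 92.5 and 105 CPM in WT tumours. Both overlapped between groups, with log2 fold changes of 0.17 ± 0.13 and -0.13 ± 0.14 (SE, edgeR adjusted p = 0.715 and 0.802), and 0.09 and -0.07 without WT 4. Xcl1, which attracts cross-presenting dendritic cells, had 4.41, 3.89 and 4.43 CPM in KO and 4.43, 4.46 and 5.60 CPM in WT tumours, overlapping narrowly at -0.18 ± 0.27 (log2, SE, edgeR adjusted p = 0.864), or -0.07 without WT 4.

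Among receptors, 13 of 21 were tested, 2 above and 11 below 0, with a median log2 fold change of -0.24 and 0 called. The split was 3 above and 10 below without WT 4 and with the block, but 6 above and 7 below without KO 3, with a median of -0.12. Leukocyte markers Ptprc, Cd52 and Coro1a summed to 167, 129 and 161 CPM in KO and 174, 174 and 212 CPM in WT tumours, 3 of 3 below 0 and 0 called. These sums did not overlap between groups, although Ptprc, Cd52 and Coro1a each did when taken singly. The part of leukocyte content in the receptor values was not tested.

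Cx3cr1, the fractalkine receptor of monocytes and macrophages, had 40.0, 38.7 and 42.0 CPM in KO tumours and 48.2, 47.8 and 44.4 CPM in WT tumours. All KO values lay below all WT values by a small margin. The annotated span of Cx3cr1 overlaps 9 other genes, so its counts are uncertain. The log2 fold change was -0.22 ± 0.12 (SE, edgeR adjusted p = 0.589). Cxcr4, the Cxcl12 receptor of most leukocytes, had 23.2, 26.5 and 30.5 CPM in KO and 26.1, 31.4 and 41.3 CPM in WT tumours, lower in each KO of a pair with overlap between groups, at -0.30 ± 0.20 (log2, SE, edgeR adjusted p = 0.654), or -0.11 without WT 4.

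Ccr2, the monocyte receptor of Ccl2 and Ccl7, had 18.1, 19.3 and 30.7 CPM in KO and 22.1, 23.7 and 28.2 CPM in WT tumours. KO tumours held its lowest and its highest value. The log2 fold change was -0.12 ± 0.23 (SE, edgeR adjusted p = 0.907), beside 1.65, 1.05 and -0.04 for its ligands Ccl7, Ccl2 and Ccl12. Differences between these genes were not tested. Ccr1, a receptor of inflammatory CC ligands, had 7.46, 7.95 and 11.7 CPM in KO and 6.92, 9.77 and 15.4 CPM in WT tumours. Its groups overlapped, with WT 4 on top, at -0.24 ± 0.34 (log2, SE, edgeR adjusted p = 0.86), or 0.11 without WT 4. Ccr7, the lymph node homing receptor, had 2.73, 1.18 and 2.39 CPM in KO and 2.58, 2.57 and 4.04 CPM in WT tumours, with KO 1 inside the WT range, at -0.55 ± 0.42 (log2, SE, edgeR adjusted p = 0.702), with -0.23 without KO 3 and -0.30 without WT 4. Ccr3, Ccr4, Ccr6, Ccr8 and Ccr9 had too few counts to be tested, with at most 18 in a library. Xcr1, the receptor of cross-presenting dendritic cells, had 4.41, 1.86 and 2.73 CPM in KO and 1.66, 2.14 and 1.66 CPM in WT tumours, with KO 1 on top and a log2 difference of 0.71 ± 0.41 (SE, edgeR adjusted p = 0.594) that was 0.36 without KO 1. Cxcr6, the Cxcl16 receptor of T and NK cells, lay at -0.27 ± 0.34 (log2, SE, edgeR adjusted p = 0.835), and Cxcr5, the B-cell receptor of Cxcl13, had at most 15 counts in a library.

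Among atypical receptors, Ackr3, which removes Cxcl12, had 27.5, 23.9 and 23.0 CPM in KO tumours and 37.0, 31.7 and 7.57 CPM in WT tumours. WT 4 stood far below, as it did for Cxcl12, and the other WT tumours lay above all KO tumours. The log2 fold change was -0.04 ± 0.50 (SE, edgeR adjusted p = 0.986), or -0.47 without WT 4 (edgeR adjusted p = 0.413) and 0.19 with the block. Ackr4, which clears Ccl19, Ccl21 and Ccl25, had 7.46, 4.65 and 5.37 CPM in KO and 7.38, 8.49 and 5.91 CPM in WT tumours. Ackr1, a carrier of inflammatory chemokines on venules, had 1.47, 1.18 and 0.682 CPM in KO and 1.57, 1.71 and 0.829 CPM in WT tumours. Both overlapped between groups, at -0.32 ± 0.29 and -0.32 ± 0.47 (log2, SE, edgeR adjusted p = 0.75 and 0.868). With 1 sample left out they ranged from -0.50 to -0.15 for Ackr4 and from -0.57 to -0.06 for Ackr1. Endothelial markers (6 of 6 detected, 6 above 0) summed to 50.2 to 68.7 CPM in KO and 28.7 to 49.2 CPM in WT tumours, and their part in the Ackr1 value was not tested. Ackr2, a scavenger of inflammatory CC ligands, had at most 9 counts in a library.

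Levels per length gave an order of abundance. Over the 6 samples Cxcl17 averaged 372 CPM per kilobase of exon, Cxcl5 191, Cxcl15 132 and Cxcl13 66.8 CPM per kilobase. Next came Cxcl16 at 35.5, Ccl21a at 32.7 and Cxcl14 at 28.8 CPM per kilobase, which are neighbours that overlapped sample by sample. By KO and WT means, Cxcl17 was at 340 and 403, Cxcl5 at 182 and 199 and Cxcl15 at 151 and 113 CPM per kilobase. The most abundant receptor was Cxcr4 at 16.5 CPM per kilobase, followed by Cx3cr1 at 9.66 and Ackr3 at 7.50 CPM per kilobase, while Cxcr2 stood at 3.28.

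**Figure D4:**
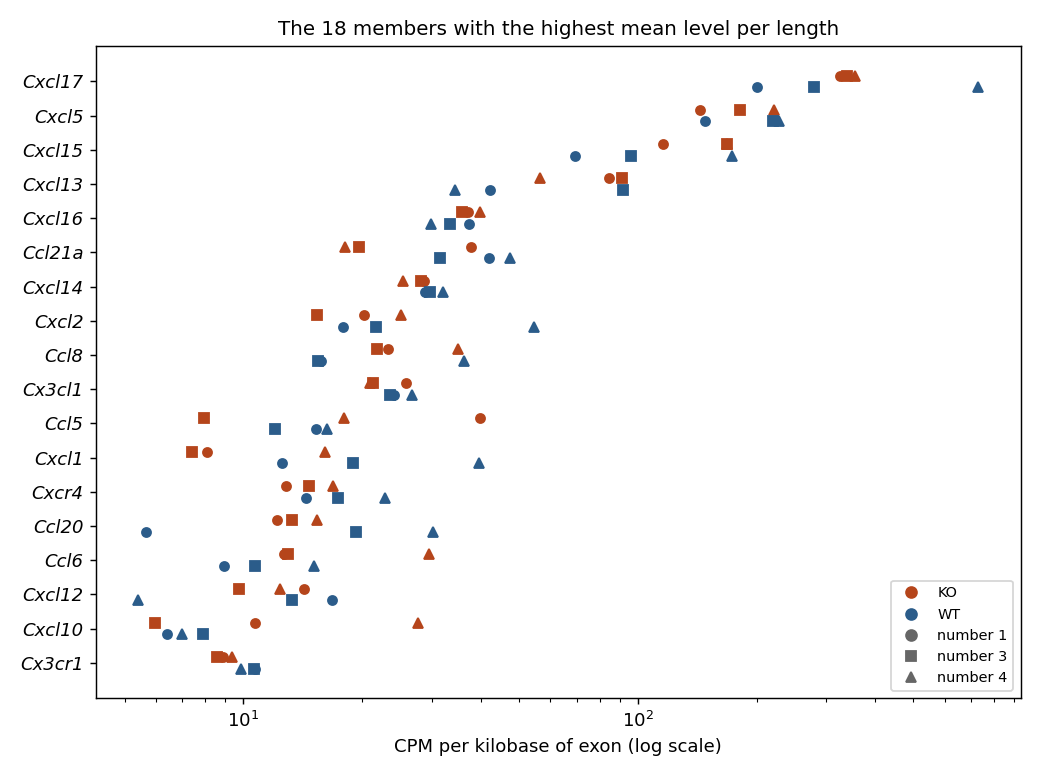
Level per length (CPM per kilobase of exon, log x axis) of the 18 most abundant members (y axis) in each KO (upper row of a gene) and WT (lower row) tumour; colours give the group and symbols the replicate number. Cxcl17, Cxcl5 and Cxcl15 lead, and the WT tumours of Cxcl17 spread more widely than its KO tumours.

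Sample by sample, WT 4 gave the highest value for 19 of the 44 tested members, where it did so for 27.0% of all genes, and KO 4 for 11, against 15.2% of all genes. The lowest value was that of KO 3 for 15 members (15.2% of all genes) and of WT 1 for 10 (19.6%). KO 3 was the highest for 0 members, where it was for 17.2% of all genes. Within groups the median log2 range was 0.72 over KO and 0.64 over WT tumours for the members, against 0.42 and 0.51 for all genes tested. The range was wider in WT than in KO tumours for 21 of the 44, where that held for 60.7% of all genes. The widest were Ccl28 and Ccl20, with WT ranges of 3.64 and 2.40 log2 units. All 3 numbered pairs had KO higher for 5 members (Ccl2, Ccl6, Ccl7, Ccl9 and Ccl11) and KO lower for 10, among them Cxcl1, Cxcl5, Cxcr2, Cxcr4 and Cx3cr1, where 20.0% and 21.2% of all genes did so.

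**Figure D5:**
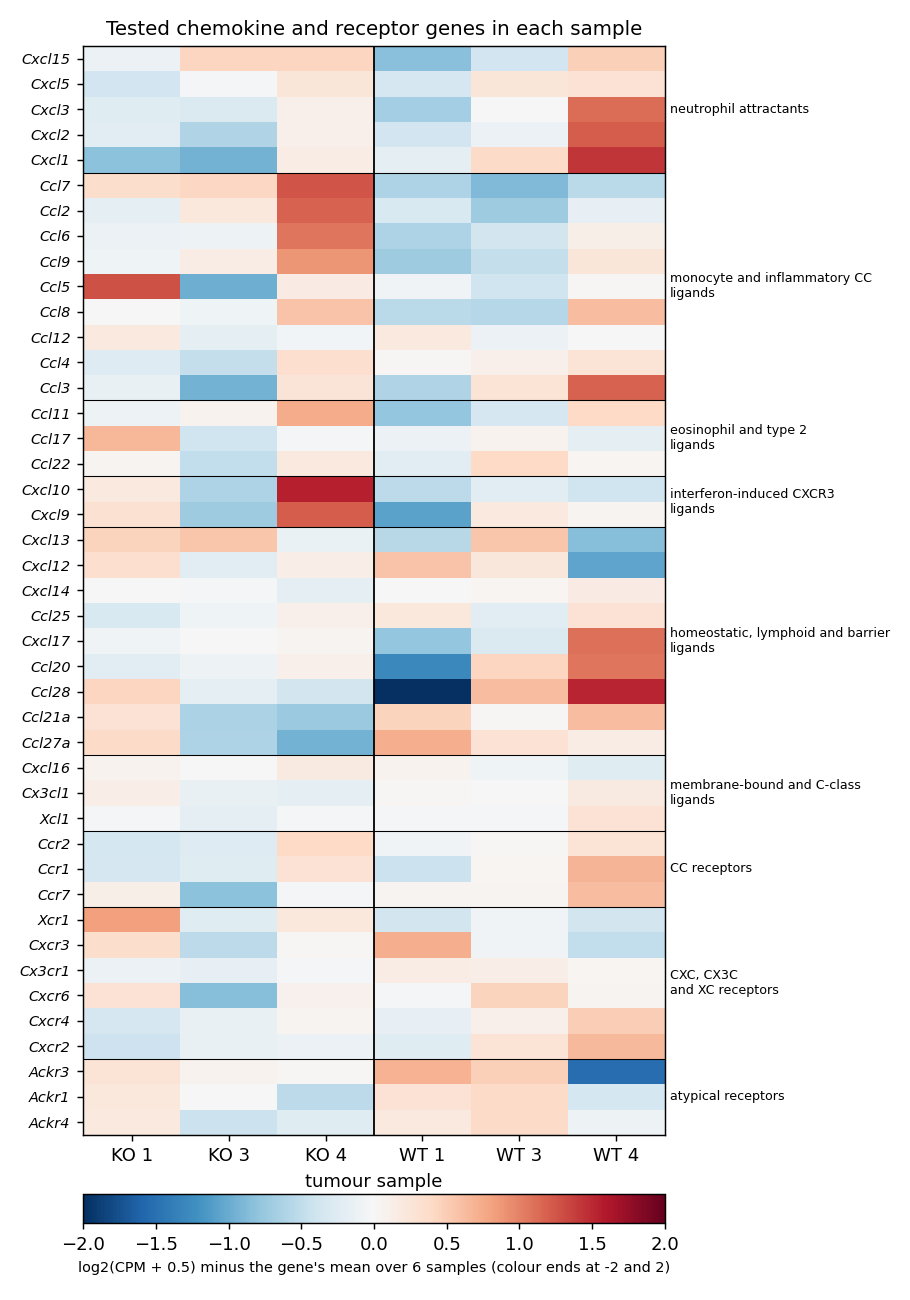
Difference of each sample (x axis, KO then WT) from the gene's mean over the 6 samples, in log2(CPM + 0.5), for the tested members described here (y axis) ordered by role; red is above and blue below the mean. WT 4 stands out in red for Cxcl1, Cxcl2, Cxcl3, Cxcl17, Ccl20 and Ccl28 and in blue for Ackr3 and Cxcl12, and KO 4 in red for Ccl2, Ccl6, Ccl7, Cxcl9 and Cxcl10.

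Members were also grouped by position in the genome. These groups share many genes with the role classes, so their counts in part repeat those above. Members within 1000000 bases of the next formed 9 clusters that held 35 of the 55. The group from Ccl2 to Ccl1 on chromosome 11 (82035571 to 82305690) had 4 of 5 tested genes above 0. The one from Ccl5 to Ccl4 (83525778 to 83664683) had 3 of 5 above 0. The neutrophil attractants on chromosome 5, the same genes as that role class, had 1 of 5 above 0, or 3 of 5 without WT 4. Over all genes 47.3% lay above 0. Genes within such a cluster are paralogues in part and were not counted as independent.

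No gene of the lists that act around the chemokines was called either. Of 21 inducers and readouts, 15 were tested, 5 above and 10 below 0. Tnf, a cytokine that induces Cxcl1 and Ccl2 in many cells, had 16.7, 17.9 and 22.3 CPM in KO and 19.8, 26.3 and 37.1 CPM in WT tumours, at -0.55 ± 0.25 (SE, edgeR adjusted p = 0.49). Il1b, another inducer, averaged 20.4 ± 6.08 CPM in KO and 29.4 ± 10.9 CPM in WT tumours (SD, n = 3 each). Nfkbia and Tnfaip3, feedback targets of NF-kappaB, lay at -0.11 ± 0.17 and 0.10 ± 0.17 (SE). Among 24 genes of receptor signalling and migration, 11 lay above and 13 below 0. The smallest p was that of Elmo1, an adaptor for Rac activation, with 29.2, 34.7 and 32.5 CPM in KO and 20.2, 24.0 and 23.6 CPM in WT tumours and a log2 difference of 0.51 ± 0.15 (SE, edgeR adjusted p = 0.28). Platelet chemokines outside the naming rule, Pf4 and Ppbp, were at -0.42 ± 0.38 and 0.86 ± 1.09 (SE, edgeR adjusted p = 0.75 and 0.84).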

How the data were processed

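Gene-level counts of the 6 libraries came from 1 deposited table, unnormalised whole numbers keyed by Ensembl ID. Per the submitters' processing notes, STAR 2.7.10a and GRCm38 were used and DESeq2 is named with no role. Poly-A selected, stranded libraries were read at 1 end over 120 bases, per the labels. Which program counted the reads, and with which strand setting, is not given in the sources, so counts of overlapping genes are uncertain. Of the members, 12 overlap another gene of the table, among them Cxcl10, Cxcl16, Cxcl17, Ccl6, Ccl27a, Cx3cr1, Ackr1 and Ackr4. GENCODE M21 gave symbols, positions and exon lengths for 21605 genes and left 113 unnamed.

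The main test was edgeR 4.0.16 (quasi-likelihood, robust, TMM scaling, filterByExpr minimum count 10, R 4.3.3), KO over WT, with Benjamini-Hochberg adjustment over all 15963 genes tested. DESeq2 1.42.0 and limma 3.58.1 (voom) were alternatives. The SE given with edgeR values was derived as the absolute log2 fold change divided by the square root of the test's F statistic. That of DESeq2 is the one the program reports. CPM values use TMM-scaled totals, and log2 ranges a prior count of 2. The tests were tested on simulated data. Deviations from the group mean correlated at 0.35, 0.135 and 0.181 between same-numbered samples (numbers 1, 3 and 4). Comparisons by number are therefore given and a blocked fit was run as an alternative, while the main test used no pairing. The labels do not state that the numbers pair samples, and correlations of this size do not establish it. The labels name no shared day or litter. Within groups no 2 libraries were alike to within counting noise.

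The members, lists and tests were chosen with earlier results of these data known. Named with every sample's value are the neutrophil attractants with Cxcr1 and Cxcr2, and per other class up to 4 members of smallest p and the 2 of highest level. Ccl3, Ccl4, Ccl12, Ccl20, Ccl28, Cxcl12 and Cxcr3, and the genes named from the pathway lists, were added after their values were seen. Ccl25 and Cxcr6, also outside that rule, are given by fold change and adjusted p alone. Some items of the table are not reported here, by name or in the figures, though counts over the members and lists include them.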

Additional observations from a re-analysis of the deposited data

How the results depend on the processing

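The count of chemokine and receptor genes called was 0 in the edgeR test and 0 with RLE or upper quartile scaling, limma-voom, both other filters, the replicate block and each sample left out (range 0 to 0). DESeq2 called 1, Ccl7, at a log2 fold change of 1.66. Over all genes edgeR called 7, against 487 with DESeq2, 2 with limma-voom, 2 with a filter of at least 1 CPM in 3 samples and 2 with the replicate block, and 0 to 72 with 1 sample left out (72 without WT 1, 18 without KO 3, 5 without WT 4, 1 without KO 1 and 0 without KO 4 or WT 3). The cause of these differences was not tested. The block changed no member's call. Among 35 named genes under 7 other settings, the only change of sign was that of Ackr3, at -0.04 in the edgeR test, 0.20 with limma-voom and 0.19 with the block. Values that 1 sample moved by over 1.5 times also include Ccl8, from 0.005 to 0.78, and Cxcl9, from 0.058 to 1.08. Leaving out 1 sample turned the sign in 15 of 210 values. The ranges of those genes were -0.47 to 0.35 for Ackr3, -0.14 to 0.54 for Ccl17, -0.34 to 0.058 for Ccl22, -0.13 to 1.02 for Ccl5, -0.47 to 0.11 for Ccr1, -0.40 to 0.057 for Ccr2, -0.54 to 0.50 for Cxcl17, -0.87 to 0.029 for Cxcl2, -0.78 to 0.17 for Cxcl3 and -0.29 to 0.053 for Cxcl5. With 3 samples a group, SE of 0.12 to 0.76 on the log2 scale limited what could be detected, and the 11 members with at most 18 counts in any library were not tested.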
